A study of Homo sapiens with 6 samples.

Results

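The ATP-binding cassette (ABC) transporter genes of NB4 cells were compared between Tan I and DMSO. Members were the genes of the deposited table whose symbol is ABC followed by a subfamily letter from A to G and a number, and 29 of the 18625 listed genes met this rule. They comprised 5 ABCA, 7 ABCB, 7 ABCC, 4 ABCD, 1 ABCE, 3 ABCF and 2 ABCG genes. A mean of at least 10 normalized counts over the 6 libraries was required for testing. It was reached by 27 of the 29 genes, which were tested among 16887 genes, while ABCB4 and ABCC11 were below it. RNA-seq libraries came from NB4, a human acute promyelocytic leukemia line that carries the PML-RARA fusion. Cells of both groups were grown for 3 days, either in DMSO or in 10 μM Tan I (tanshinone I, a lipid-soluble compound from the root of Salvia miltiorrhiza), with 3 libraries per group. This is a single cell line, and the labels do not say whether the replicates were separate cultures, so p-values measure the spread between these libraries, which may be technical.

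ABC proteins bind ATP through paired nucleotide-binding domains, and most use its hydrolysis to move lipids, sterols, peptides, heme-related compounds or drugs across a membrane. Subfamilies A to D and G are membrane transporters, whereas ABCE1 and the ABCF proteins have no membrane-spanning part and act on ribosomes. ABCG2, also known as the breast cancer resistance protein, exports drugs, urate and porphyrins, and marks the side population of hematopoietic stem cells. ABCG2 and the ABCC proteins are known for carrying cytotoxic drugs out of leukemia cells.

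The values were read counts divided by 1 size factor per library. Depth, as reads on listed genes, was 25356503 to 31679138 in DMSO and 21502760 to 24298627 in Tan I, totals that cover the listed genes alone. The first principal component of the tested genes held 70.8% of the variance between libraries, with DMSO replicate 2 (score 41.1) and Tan I replicate 3 (71.6) at one end and DMSO replicate 1 (-48.0) and Tan I replicate 1 (-46.8) at the other. Members affected by these libraries are therefore given with each library's value. Of 7 promyelocyte markers, 6 were listed, and their summed level was 71171 to 77317 normalized counts in DMSO and 42027 to 50381 in Tan I. Most of this was MPO, and the other 5 summed to 10782 to 13210.0 in DMSO and 8748 to 11143 in Tan I, with overlapping groups. MPO, the myeloperoxidase of primary granules, had 62588 ± 1949.8 normalized counts with DMSO and 36602 ± 3112 with Tan I (SD, n = 3 each), and CTSG had 1909 ± 438 normalized counts with DMSO and 1199 ± 333 with Tan I. Both were called lower without adjustment (adjusted p = 0.999 in limma). PRTN3, AZU1, CEBPE and CD33 overlapped between groups and were not called, with log2 fold changes of -0.32, -0.25, -0.12 and 0.071. The part of these markers in the values of the ABC genes was not tested. Markers of other cell types had lower sums than the promyelocyte markers. The 2 macrophage markers listed of 5 (CD14 and CSF1R) summed to 21.9 to 31.8 normalized counts in DMSO and 29.5 to 45.0 in Tan I. The sums were 320 to 479 and 354 to 620 for 3 of 4 T cell markers and 170 to 179 and 159 to 172 for 2 of 3 B cell markers. For 2 of 4 epithelial markers they were 223 to 375 and 276 to 435. Single markers were not all below the promyelocyte ones, as CD3D had 313 with DMSO and CEBPE 287. CD2, a T cell marker, had each Tan I library above each DMSO library, as did 3.92% of all genes tested. It had 61.5 ± 2.61 normalized counts with DMSO and 80.5 ± 11.4 with Tan I. ALAS2, the 1 erythroid marker listed of 5, had 15.4 to 51.3 and 10.7 to 28.3. Of the 4 stem or progenitor markers 0 were listed, and they were not analysed here.

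Upstream sequences are shown for ABCG2, the 1 member called in the comparison, and for ABCE1, whose level was among the highest and which had the most copies of the motif searched for. The aryl hydrocarbon receptor (AHR), a ligand-activated factor that can act on ABCG2, binds the core letters GCGTG. Windows of 250 bases before the start were read 5′ to 3′ on the strand of the gene, and capitals mark GCGTG or its reverse complement CACGC. In RefSeq (GRCh38.p14) the ABCG2 window lies at chr4:88231627-88231876 on the - strand and the ABCE1 window at chr4:145098061-145098310 on the + strand. The canonical ABCG2 transcript of GENCODE release 44 starts further inside the gene, at 88158639, and the bases before it (GRCh38, chr4:88158640-88158889, - strand) are given as well.
ABCG2, RefSeq start: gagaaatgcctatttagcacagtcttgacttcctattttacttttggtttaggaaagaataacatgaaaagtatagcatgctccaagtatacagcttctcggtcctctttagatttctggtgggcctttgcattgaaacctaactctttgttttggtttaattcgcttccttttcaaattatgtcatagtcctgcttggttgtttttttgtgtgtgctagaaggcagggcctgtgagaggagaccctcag
ABCG2, canonical start: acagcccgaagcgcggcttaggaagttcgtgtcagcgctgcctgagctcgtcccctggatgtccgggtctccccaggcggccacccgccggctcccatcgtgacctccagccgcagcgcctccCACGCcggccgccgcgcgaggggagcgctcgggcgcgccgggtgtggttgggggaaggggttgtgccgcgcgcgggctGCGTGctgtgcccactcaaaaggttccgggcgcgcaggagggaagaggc
ABCE1, RefSeq start: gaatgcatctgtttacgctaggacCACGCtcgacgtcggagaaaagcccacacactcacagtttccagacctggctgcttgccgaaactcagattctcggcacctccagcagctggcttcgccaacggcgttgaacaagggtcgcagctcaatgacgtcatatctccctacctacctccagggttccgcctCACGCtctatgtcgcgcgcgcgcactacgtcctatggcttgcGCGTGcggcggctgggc

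The ABCG2 windows differed in base composition. The one at the RefSeq start was 40% G or C with 2 CpG dinucleotides and 0 copies of the AHR core, while the one at the canonical start was 73.6% G or C with 32 CpG and 2 copies. The canonical start lies 72989 bases inside the end of the annotated gene, GENCODE annotates 5 starts in all, and counts per gene cannot tell which was used. The ABCE1 window was 60% G or C with 24 CpG and 3 copies. RefSeq promoters were available for 24 of the 29 members. The AHR core was present on either strand in 11 of these 24 windows (45.8%), against 32.2% of 35116 windows of the same length. The antioxidant response element TGACNNNGC, read by NRF2, stood in 6 (25%, against 10.9%), the E-box CACGTG in 3 (12.5%, against 6.34%) and TATAAA in 3 (12.5%, against 10.7%), both strands searched. The 24 windows had a median of 19.5 CpG and 65% G or C, against 11 CpG and 58% over all windows, and the motif shares were not corrected for this.

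CpG content and level were set side by side as a description. The 5 members with fewer than 10 CpG in the RefSeq window (ABCB11, ABCC2, ABCC11, ABCD2 and ABCG2) had DMSO levels of 0.900 to 14.4 normalized counts per kilobase of exon, with a median of 3.03. The other 19 ranged from 3.87 (ABCG4) to 609 (ABCA2), with a median of 123. ABCG4, ABCB6 and ABCC6, with 19, 20 and 21 CpG, were as low as the first set, so the ranges overlapped. The place of ABCG2 in the first set rests on the RefSeq start. Its canonical window, with 32 CpG, would put it in the other set, where its level of 2.35 would be the lowest.

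The ABC genes as a family differed little between Tan I and DMSO. At the study's thresholds, an unadjusted p of at most 0.05 (in limma) and a log2 fold change of 0.25 or more in size, 1 of the 27 genes was called higher in Tan I (ABCG2) and 0 were called lower. The corresponding shares of the 16887 genes tested were 1.32% higher and 1.1% lower, 2.42% in either direction. The count over all genes, 408, depended on single libraries and was 1496 without Tan I replicate 1, 160 without Tan I replicate 2, 180 without DMSO replicate 1, 201 without DMSO replicate 3 and 271 without Tan I replicate 3. After Benjamini-Hochberg adjustment, 0 of the 27 genes were called, as were 0% of all genes, and every member had an adjusted p of 0.999. At an unadjusted p of at most 0.05 without the fold threshold there was again 1 member, and with edgeR and DESeq2 on the recovered reads ABCG2 was likewise the 1 member called without adjustment. The Tan I libraries were all above the DMSO libraries for 1 member (ABCG2), against 3.92% of all genes. All lay below for 3 members (ABCA3, ABCA7 and ABCB9), against 3.97%.

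The log2 fold changes of the 27 genes ran from -0.55 for ABCD2 to 1.42 for ABCA4, with a median of -0.04 (-0.0016 over all genes tested). The estimate was negative for 19 genes (70.4%, against 50.3% of all genes) and positive for 8, and the sign changed in at least 1 alternative for 14 of the 27. It was under 0.25 in absolute size for 20 members (74.1%), close to the 71.9% of all genes. The median standard error was 0.18, against 0.22 for all genes. The 95% interval lay inside ±0.5 for 13 of the 27 members and inside ±1 for 21, against 28.7% and 73.1% of all genes tested. By subfamily, the median was -0.16 in ABCA (5 genes), -0.02 in ABCB (6), -0.11 in ABCC (6), -0.05 in ABCD (4), 0.03 in ABCF (3) and 0.36 in ABCG (2), and the value of ABCE1 was 0.02.

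**Figure D1:**
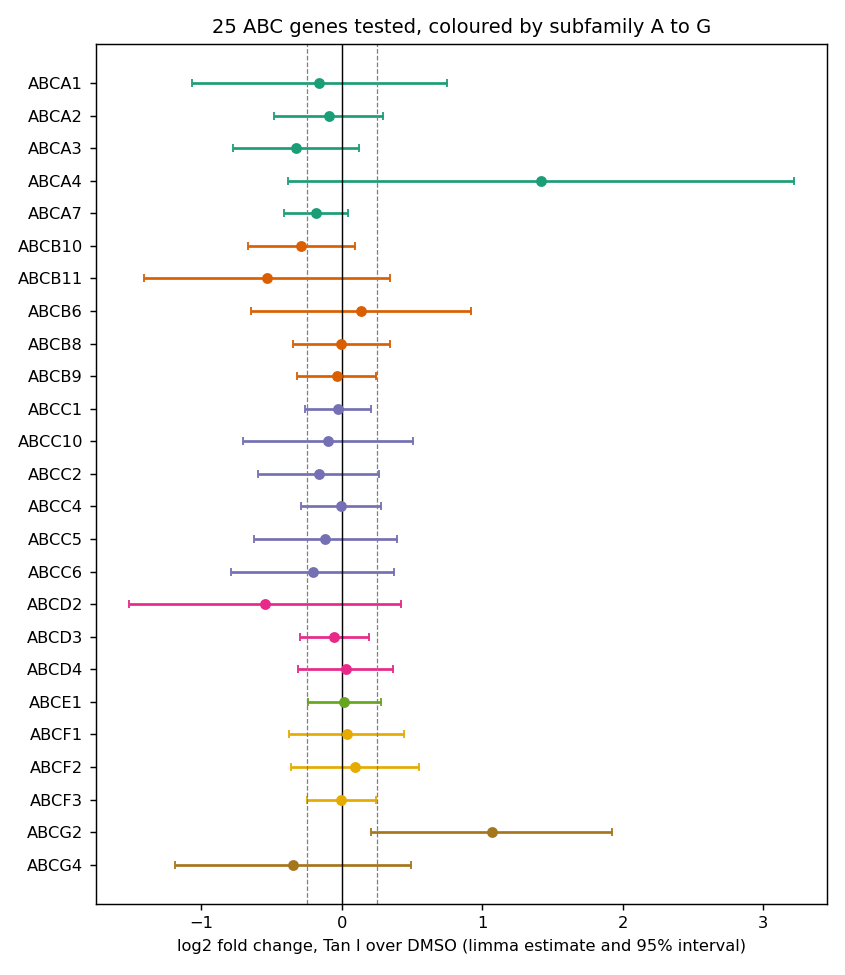
Log2 ratio of Tan I to DMSO (x axis) for 25 of the ABC genes tested (y axis), coloured by subfamily, with limma's 95% interval and dashed lines at ±0.25. The interval of ABCG2 lies above 0, and those of the other 24 genes include 0.

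Levels were compared between genes as normalized counts per kilobase of exon. ABCA2, an endolysosomal lipid transporter, had the highest DMSO level (609), and other high levels were those of ABCD4 (414), ABCE1 (391), ABCF1 (385) and ABCB10 (347). The values of ABCD4, ABCE1, ABCF1 and ABCB10 overlapped between libraries. At the low end stood ABCG4 (3.87), ABCD2 (3.03), ABCG2 (2.35) and ABCA4 (1.13). Summed over subfamilies, the levels were 1012 ± 145 in DMSO and 930 ± 170 in Tan I for ABCA, 855 ± 90.3 and 808 ± 41.5 for ABCB, 481 ± 66.1 and 455 ± 55.2 for ABCC, 611 ± 54.3 and 608 ± 17.7 for ABCD, and 658 ± 74.2 and 668 ± 72.9 for ABCF (SD, n = 3 each). ABCG summed to 6.22 ± 1.09 and 8.34 ± 2.80, so ABCG2 and ABCG4 made up little of the ABC transcripts counted in either group. Other ABCG genes were not listed, and their levels are not known here. Over all 29 genes the sum was 4015 ± 76.3 in DMSO and 3872 ± 113 in Tan I, and the groups overlapped.

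**Figure D2:**
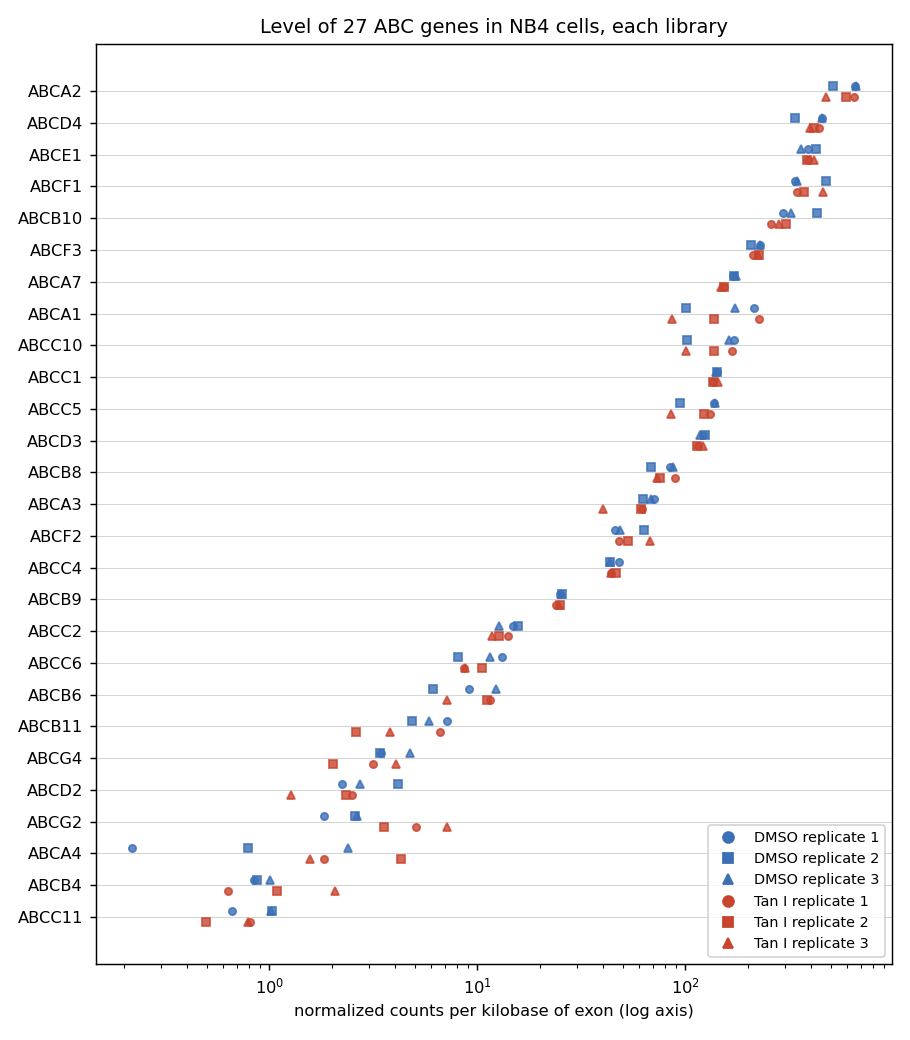
Normalized counts per kilobase of exon (x axis, log scale) of 27 ABC genes (y axis) in each of the 6 libraries. Levels span from ABCC11 and ABCB4 at the bottom to ABCA2 at the top, and the 3 red Tan I points of ABCG2 lie to the right of the 3 blue DMSO points.

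ABCG2 (ENSG00000118777, GRCh38 chr4:88090150-88231628, - strand, 16 exons in the canonical transcript) was higher in Tan I. It had 11, 15 and 19 reads in DMSO and 29, 19 and 30 in Tan I, for replicates 1, 2 and 3 in turn. These were 10.3, 14.4 and 14.8 normalized counts with DMSO and 28.3, 20.0 and 40.0 with Tan I. Each Tan I library lay above each DMSO library, with Tan I replicate 2 the nearest to DMSO and Tan I replicate 3 the farthest. The means were 13.2 ± 2.54 normalized counts with DMSO and 29.5 ± 10.0 with Tan I (SD, n = 3 each), or 2.35 ± 0.45 and 5.26 ± 1.79 per kilobase. The log2 fold change was 1.07 (standard error 0.37, 95% interval 0.21 to 1.93), with an adjusted p of 0.999 in limma and a p of 0.1 in the exact permutation test (two-sided), the lowest value that this design can reach. The exact 95% Poisson intervals of the single libraries, which cover counting error alone, ran from 5.12 to 18.4, 8.09 to 23.8 and 8.94 to 23.2 normalized counts in DMSO and from 19.0 to 40.7, 12.1 to 31.3 and 27.0 to 57.1 in Tan I. The interval of Tan I replicate 2 thus overlapped those of all 3 DMSO libraries, and that of Tan I replicate 1 overlapped DMSO replicates 2 and 3. The interval of Tan I replicate 3 lay above all 3 DMSO intervals. Without DMSO replicate 1 the log2 fold change was 0.91, and without Tan I replicate 3 it was 0.83, and in both cases ABCG2 was no longer called without adjustment. Without DMSO replicate 2 it was 1.14. The study chose ABCG2 among genes that differed both in these libraries and in treated zebrafish embryos, so its direction here is no independent evidence. Its other assays of ABCG2, among them ChIP-qPCR in NB4 cells, were not examined here. In these bulk libraries, more cells with the transcript and more transcript per cell cannot be told apart. MPO and CTSG, but not the other promyelocyte markers listed, were also apart between the groups, the macrophage marker sum overlapped, and their part in the ABCG2 value was not tested.

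ABCG4, which like ABCG2 works as a dimer and moves sterols, had 21.4, 21.2 and 29.7 normalized counts with DMSO and 19.5, 12.6 and 25.3 with Tan I. The groups overlapped, with Tan I replicate 3 above DMSO replicates 1 and 2. Its log2 fold change was -0.35 (standard error 0.36, 95% interval -1.19 to 0.49), so the members of this subfamily gave estimates of opposite sign, the difference between which was not tested.

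**Figure D3:**
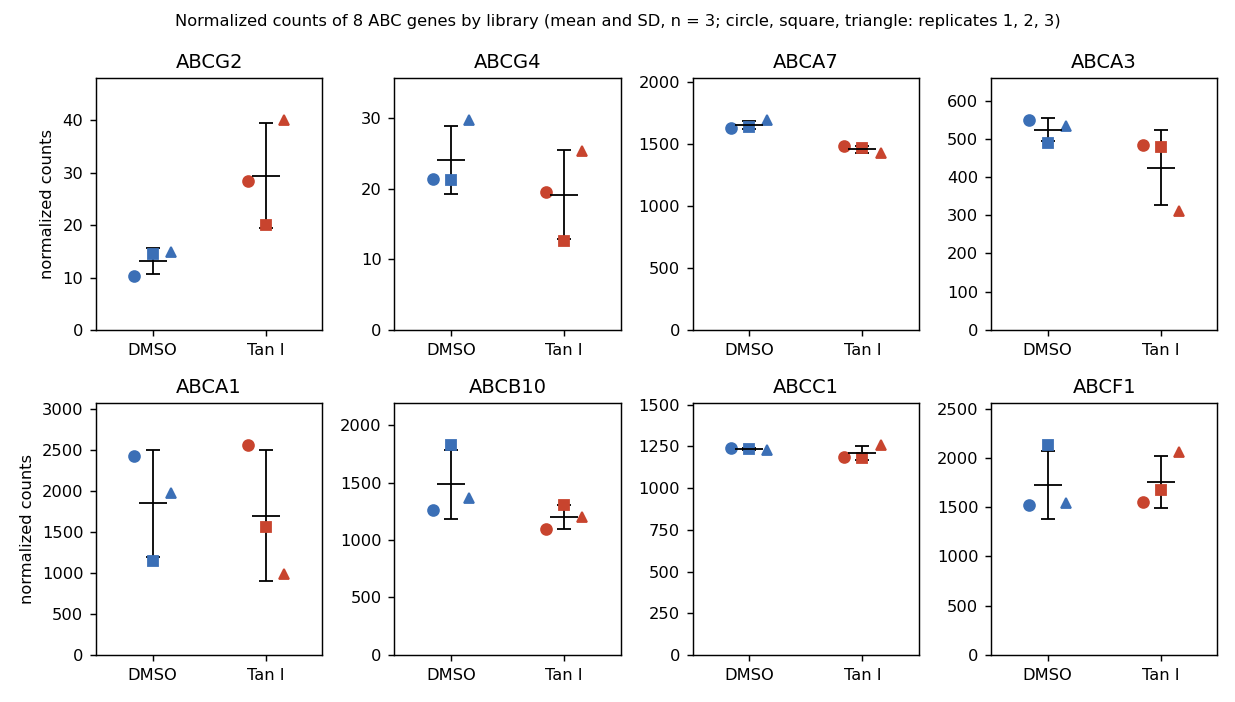
Normalized counts (y axis) of 8 ABC genes in each DMSO and Tan I library, with mean and SD (n = 3). The Tan I points of ABCG2 lie above, and those of ABCA3 and ABCA7 below, the DMSO points, and the groups overlap for the other 5 genes.

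The ABCA proteins are full transporters of lipids. ABCA7, which moves phospholipids and takes part in phagocytosis (GRCh38 chr19:1039997-1065572, + strand), had 1631, 1638 and 1689 normalized counts with DMSO and 1478, 1464 and 1422 with Tan I. All Tan I libraries lay below all DMSO libraries, and both groups were tight. The log2 fold change was -0.18 (standard error 0.098, 95% interval -0.41 to 0.045), under the fold threshold. ABCA3, which loads surfactant lipids in the lung (GRCh38 chr16:2275881-2340746, - strand), had 548, 489 and 534 normalized counts with DMSO and 484, 478 and 312 with Tan I. These groups were apart as well, but Tan I replicates 1 and 2 were close to the lowest DMSO library and Tan I replicate 3 stood well below. The log2 fold change was -0.33 (standard error 0.19, 95% interval -0.78 to 0.12) and was -0.12 without Tan I replicate 3. ABCA3 overlaps the pseudogene ABCA17P on the opposite strand, and the strand setting of the counting is not given in the sources used here. In all, 22 of the 29 members overlap another annotated gene on either strand when whole gene spans, introns included, are compared. Overlap of exons was not examined, so which of these members could share reads is not known.

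ABCA4, the retinoid transporter of photoreceptors (GRCh38 chr1:93992834-94121148, - strand), gave the largest estimate among members but rested on few reads, namely 2, 7 and 26 reads in DMSO and 16, 35 and 10 in Tan I. In normalized counts these were 1.86, 6.74 and 20.3 with DMSO and 15.6, 36.9 and 13.3 with Tan I, and DMSO replicate 3 lay above Tan I replicates 1 and 3. Its log2 fold change of 1.42 came with a standard error of 0.77 (95% interval -0.38 to 3.22). Without DMSO replicate 3 it was 2.14 and was called without adjustment, in a fit that called 1.19% of all genes. Without DMSO replicate 1 it was 0.70. ABCA1, which exports cholesterol to apolipoprotein A-I, had 2427, 1145 and 1967 normalized counts with DMSO and 2554, 1561 and 982 with Tan I, a range within each group far wider than the difference between them. Its log2 fold change was -0.16 (standard error 0.39, 95% interval -1.07 to 0.75). ABCA2 had 7518, 5872 and 7622 normalized counts with DMSO and 7449, 6792 and 5474 with Tan I and a log2 fold change of -0.094 (standard error 0.17), with overlapping groups.

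In the ABCB subfamily, ABCB10 supports early heme synthesis in mitochondria, ABCB8 is mitochondrial too and ABCB6 is linked to porphyrin transport. ABCB10 had 1258, 1823 and 1368 normalized counts with DMSO and 1098, 1306 and 1202 with Tan I, and Tan I replicate 2 lay above DMSO replicate 1. Its log2 fold change was -0.29 (standard error 0.16, 95% interval -0.67 to 0.093), and -0.13 without DMSO replicate 2, the highest of the 6 libraries. ABCB10 was called lower without adjustment after each library was rescaled to the same total, and again when the first principal component score was a covariate. These fits called 2.59% and 8.86% of all genes in turn. The 3 annotated pseudogenes of ABCB10 make its count less certain.

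ABCB6 had 47.6, 31.8 and 64.1 normalized counts with DMSO and 59.6, 58.0 and 37.3 with Tan I, and ABCB8 had 788, 636 and 811 normalized counts with DMSO and 835, 708 and 683 with Tan I. Neither showed a separation, with log2 fold changes of 0.13 (standard error 0.33) and -0.0031 (standard error 0.15). ABCB6 overlaps another protein-coding gene on the same strand, so its level is less certain. ABCB9, a lysosomal peptide transporter (GRCh38 chr12:122920951-122981649, - strand), had 331, 340.0 and 334 normalized counts with DMSO and 319, 331 and 329 with Tan I. All Tan I values were below all DMSO values, yet the highest Tan I and the lowest DMSO library were nearly equal and the log2 fold change was -0.037 (standard error 0.12). ABCB9 overlaps the protein-coding genes ARL6IP4 and OGFOD2 on the other strand. The bile transporters were low. ABCB11, the bile salt export pump, had 55.0, 37.6 and 45.3 normalized counts with DMSO and 50.8, 20.0 and 29.3 with Tan I, with a log2 fold change of -0.53 (standard error 0.37, 95% interval -1.41 to 0.34). DMSO replicate 2 lay below Tan I replicate 1. Without Tan I replicate 1 the estimate was -0.88 and was called without adjustment, in a fit that called 8.86% of all genes. Without Tan I replicate 2 the estimate was -0.23. ABCB4, a phospholipid flippase of bile, had 7, 7 and 10 reads in DMSO and 5, 8 and 12 in Tan I and was not tested.

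The ABCC proteins include the multidrug resistance-associated proteins, which export drugs and conjugates of glutathione or glucuronate. Each of the 6 genes tested had a negative estimate under 0.25 in size, and 0 were called. The signs of ABCC4, ABCC5 and ABCC10 changed in some alternatives. ABCC1, the best known exporter of the group, had 1241, 1234 and 1229 normalized counts with DMSO and 1189, 1182 and 1256 with Tan I. DMSO libraries differed by a coefficient of variation of 0.489%, and Tan I replicate 3 was the highest of the 6. The log2 fold change was -0.031 (standard error 0.10, 95% interval -0.27 to 0.20). ABCC4, which exports cyclic nucleotides and nucleoside analogues, had 413, 375 and 375 normalized counts with DMSO and 380.2, 400.5 and 379 with Tan I, with a log2 fold change of -0.0031 (standard error 0.12).

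ABCC10 had the highest DMSO level per kilobase of the subfamily (145, next to 141 for ABCC1), and it varied with the library, with 1390.3, 822 and 1316 normalized counts with DMSO and 1359, 1109 and 811 with Tan I. ABCC5, another exporter of nucleotide analogues, behaved alike, with 1553, 1069 and 1572 normalized counts with DMSO and 1500.3, 1396 and 974 with Tan I. DMSO replicate 2 and Tan I replicate 3 were the lowest of their groups for both genes, whose log2 fold changes were -0.10 (standard error 0.26) and -0.12 (standard error 0.22). ABCC2, a conjugate exporter of liver canaliculi, had 117, 123 and 99.2 normalized counts with DMSO and 110.4, 99.1 and 92.0 with Tan I and a log2 fold change of -0.17 (standard error 0.18). ABCC6, which is linked to mineralization, had 90.4, 55.9 and 79.7 normalized counts with DMSO and 59.6, 72.7 and 60.0 with Tan I and a log2 fold change of -0.21 (standard error 0.25). It has 2 annotated pseudogene copies. The study removed reads that mapped to several places, so reads matching these copies equally well may be missing from its count. ABCC11 had 6, 9 and 11 reads in DMSO and 7, 4 and 5 in Tan I and was not tested.

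ABCD2 and ABCD3 bring fatty acids into peroxisomes, and ABCD4 is a lysosomal protein needed for cobalamin export. ABCD4 was the most abundant, with 4036, 3015 and 4028 normalized counts with DMSO and 3909, 3720.3 and 3563 with Tan I, and DMSO replicate 2 was its lowest library. Its log2 fold change was 0.027 (standard error 0.14). ABCD3 had 929, 946 and 904 normalized counts with DMSO and 876, 875 and 928 with Tan I and a log2 fold change of -0.053 (standard error 0.10), with overlapping groups. ABCD2 had 15, 27 and 22 reads in DMSO and 16, 14 and 6 in Tan I, which were 14.0, 26.0 and 17.2 normalized counts with DMSO and 15.6, 14.8 and 8.0 with Tan I. Tan I replicate 3 was the lowest and DMSO replicate 2 the highest, but Tan I replicates 1 and 2 lay between DMSO replicates 1 and 3. Its log2 fold change was the lowest among members, -0.55 (standard error 0.41, 95% interval -1.52 to 0.42).

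ABCE1 splits ribosomes for recycling after termination, and the ABCF proteins act in translation and its control, ABCF1 at initiation. ABCE1 had 2439, 2651 and 2253 normalized counts with DMSO and 2423, 2414 and 2584 with Tan I and a log2 fold change of 0.018 (standard error 0.11, 95% interval -0.24 to 0.28). ABCF1 had 1518, 2128 and 1541 normalized counts with DMSO and 1548, 1677 and 2055 with Tan I, with DMSO replicate 2 and Tan I replicate 3 above the rest. ABCF2 was also highest in these libraries, at a lower level, with 236, 327 and 249 normalized counts with DMSO and 248, 272 and 347 with Tan I. It overlaps the protein-coding gene ABCF2-H2BK1 on the same strand and has 2 annotated pseudogenes, so its level is less certain. ABCF3 had 1174, 1064 and 1171 normalized counts with DMSO and 1091, 1161 and 1148 with Tan I. Their log2 fold changes were 0.033 (standard error 0.18), 0.094 (0.20) and -0.0029 (0.11), and the groups overlapped for each of these 4 genes.

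Several members differed more between libraries of one group than between the groups. Of the 27 genes, 9 (33.3%) were lowest in both DMSO replicate 2 and Tan I replicate 3, close to the 32.1% of all genes tested: ABCA1, ABCA2, ABCA3, ABCB6, ABCB8, ABCC4, ABCC5, ABCC10 and ABCD4. Another 5 (18.5%, against 35.0% of all genes) were highest in both, among them ABCD3, ABCE1, ABCF1 and ABCF2. ABCA1 in DMSO replicate 2 was 0.521 times the mean of the other DMSO libraries, and in Tan I replicate 3 it was 0.384 times Tan I replicate 1. These ratios were 0.607 and 0.597 for ABCC10, 0.684 and 0.649 for ABCC5, 1.39 and 1.33 for ABCF1 and 1.35 and 1.40 for ABCF2. Lowest in both were 3 of 5 ABCA, 2 of 6 ABCB, 3 of 6 ABCC and 1 of 4 ABCD genes tested. Highest in both were the 1 ABCE and 2 of 3 ABCF genes, with 1 of 6 ABCB and 1 of 4 ABCD genes. A link of this order with subfamily or function was not tested. ABCD2 went opposite ways in the 2 groups, with ratios of 1.67 and 0.512. For ABCG2 the ratios were 1.15 and 1.41. Without DMSO replicate 2 the median log2 fold change of the 27 genes was -0.11. When the first principal component score was added as a covariate it was -0.0092, and 3 members (11.1%; ABCA4, ABCB10 and ABCG2) were called without adjustment, near the 8.86% of all genes called in that fit.

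**Figure D4:**
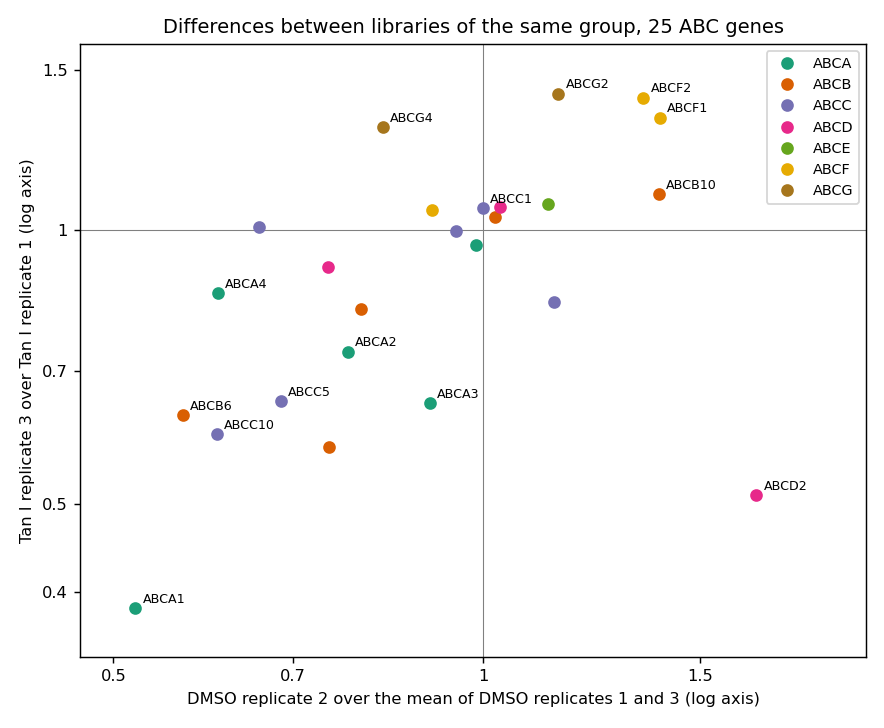
Ratio of DMSO replicate 2 to the mean of DMSO replicates 1 and 3 (x axis) and of Tan I replicate 3 to Tan I replicate 1 (y axis) for 25 ABC genes, both on log scales and coloured by subfamily. ABCA1, ABCC5 and ABCC10 lie low on both axes, ABCF1 and ABCF2 high on both, and ABCC1 lies near 1 on both.

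ABC proteins with other symbols were read for comparison. TAP1, which with TAP2 carries peptides to MHC class I molecules, had 862 ± 103 normalized counts with DMSO and 882 ± 73.9 with Tan I (SD, n = 3 each) and a log2 fold change of 0.036. TAP2 had 629 ± 226 normalized counts with DMSO and 559 ± 225 with Tan I and a log2 fold change of -0.18. CFTR, a chloride channel, had 7.68 ± 3.24 normalized counts with DMSO and 5.43 ± 4.83 with Tan I and was not tested.

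Partner and regulator genes were grouped in 6 lists, with 69 genes tested. Of these, limma called 0 without adjustment in either direction, against 2.42% of all genes, and 0 had an unadjusted p of at most 0.05. On the recovered reads, edgeR and DESeq2 each called 1 of the 69, PDIA3, without adjustment. Over all genes, edgeR called 2.42% and DESeq2 2.49%. For the sterol receptor LXR and sterol handling (15 of 17 genes listed and tested), which governs ABCA1 among others, the median log2 fold change was 0.01. NR1H3, the gene of LXR-alpha, had 227 ± 18.3 normalized counts with DMSO and 270.0 ± 39.2 with Tan I (SD, n = 3 each). Its log2 fold change was 0.24 (standard error 0.16). It was the 1 gene of 15 in this list with each Tan I library above each DMSO library, against 3.92% of all genes tested. For factors known to act on ABCG2 (9 of 10 genes) the median was 0.03. AHR had 444 ± 48.7 normalized counts with DMSO and 501 ± 60.7 with Tan I and a log2 fold change of 0.17 (standard error 0.15). NFE2L2, the gene of NRF2, had 1399 ± 71.9 normalized counts with DMSO and 1514 ± 115 with Tan I (0.11, standard error 0.11), and EZH2, the histone methyltransferase of PRC2, had 3522 ± 418 normalized counts with DMSO and 3653 ± 288 with Tan I (0.057, standard error 0.13). These 3 genes overlapped between groups.

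Peroxisomal partners of ABCD proteins (12 of 13 genes) had a median of 0.05, and heme and iron-sulfur partners of the mitochondrial ABCB proteins (12 of 12) a median of -0.02. For antigen peptide loading (8 of 8) it was 0.20, with 6 genes positive. PDIA3, a chaperone of the loading complex, had 19291 ± 1836 normalized counts with DMSO and 25449 ± 4533 with Tan I and a log2 fold change of 0.39 (standard error 0.17), and the groups overlapped. TAPBP, tapasin, was the 1 gene of these 8 with each Tan I library above each DMSO library, against 3.92% of all genes tested. It had 1992 ± 36.6 normalized counts with DMSO and 2316 ± 149.7 with Tan I and a log2 fold change of 0.22 (standard error 0.10). Ribosome recycling and GCN2 genes, partners of ABCE1 and ABCF (13 of 13), had a median of 0.03 with 12 positive estimates. Each of these 13 estimates was smaller in size than its standard error. Over all genes tested the median was -0.0016 on the same scale, with 8393 of 16887 estimates positive.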

How the data were processed

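RNA-seq of NB4 cells was analysed from 1 deposited table. Per the labels and the study's methods, the authors aligned reads to GRCh38 with STAR and removed reads that mapped to several places. They counted the rest with featureCounts and used DESeq2. Versions, annotation release and strand setting are not given in the sources used here. The deposited signal values are counts divided by a size factor. They were whole multiples of 1 read (100%, tolerance 0.1 reads), so reads were recovered. The authors' own fold changes and p-values in the table were not used. Control columns were matched to DMSO, the 1 control group.

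Treatment was tested with limma 3.58.1 in R 4.3.3 (trend) on log2(normalized count + 1) for genes with a mean of at least 10, adjusted by Benjamini-Hochberg. For members below 100 normalized counts, adding 1 gave log2 fold changes of smaller size than adding 0.1 (ABCA4 1.42 against 1.61). Against edgeR and DESeq2 the direction differed by gene. ABCA4 was larger on this scale (1.42, against 1.15 and 1.18), and ABCG2 was smaller (1.07, against 1.14 and 1.15). Exon lengths and positions came from GENCODE release 44 (99.6% of identifiers found). Genes named with values were the members reported singly, TAP1, TAP2, CFTR, the regulators AHR, NFE2L2, NR1H3 and EZH2, and list genes whose call or separation is described; TAPBP and PDIA3 were chosen after their values were seen. Members and lists were chosen with earlier results of these data known. Counts and medians cover every member, but 2 members are not reported here singly or drawn. Alternatives included edgeR 4.0.16 (quasi-likelihood) and DESeq2 1.42.0 (Wald) on recovered reads. Scripts were tested on simulated data.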

Additional observations from a re-analysis of the deposited data

How the results depend on the processing

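ABCG2 kept its direction in 16 of 16 alternatives that tested it, with log2 fold changes of 0.74 to 1.31 and adjusted p-values of 0.175 to 1, and it was called without adjustment in 14. The groups of ABCG2 were apart, so another pseudocount, filter or variance setting, the replicate block or a left-out library could not reverse its direction. Leaving out single libraries gave 0.83 (without Tan I replicate 3) to 1.31, and 0.91 without DMSO replicate 1. The count of ABC genes called without adjustment, 1 in the main test, was 0 with a mean of at least 50, which leaves ABCG2 out, 2 after rescaling to the same total (ABCB10 and ABCG2) and 3 with the first component (PC1) score as a covariate, when all genes called went from 408 to 438 and 1496. It ranged from 0 to 2 when single libraries were left out, when 0.947% to 8.86% of all genes were called. The count of ABC genes with adjustment was 0 in each alternative run. The median of the ABC genes was -0.10 after rescaling, where that of all genes was -0.06, and -0.0092 with PC1, and it ranged from -0.11 (without DMSO replicate 2) to -0.032 (without DMSO replicate 1). Genes with groups apart, 4 in all, numbered 5 to 10 with a library left out, when fewer values have to be separated. This was 18.5% to 37.0% of members and 11.0% to 26.5% of all genes, against 14.8% and 7.89% with the 6 libraries. Of the partner and regulator genes, 0 in the main test, 1 (PDIA3) was called after rescaling, with quantile normalization, edgeR, DESeq2, PC1 and the replicate block, and 0 to 3 with a library left out (ERAP2 without DMSO replicate 2, and NEMF, PDIA3 and TAPBP without Tan I replicate 1). The share of all genes called was 8.86% both with PC1 and without Tan I replicate 1, and 2.76% without DMSO replicate 2. It was 2.59% after rescaling and 2.06% with the replicate block. The cause of these differences was not tested. Of the alternatives' values for members other than ABCG2, 422 of 437 moved by less than 1 SD of the DMSO replicates and 15 moved by more. Values under another filter or variance setting, or with the replicate block, were the same by construction. ABCA4, ABCB10 and ABCB11, the other members called in some alternative, kept their sign. The sign itself changed in at least 1 alternative for 14 of the 27 members, in 44 of 453 values, and none of the 14 had an absolute log2 fold change above 0.161.

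Of the same-numbered libraries, those of replicate 1 deviated together (correlation 0.75) and those of replicates 2 and 3 did not (-0.09 and -0.45), so the numbers were not taken to pair the libraries. With the replicate block, 1 ABC gene was called without adjustment and 348 genes over the whole table, against 408 without it. With adjustment, DESeq2 called 16 genes and limma with PC1 194, 0 of them ABC genes in either case. Below 100 normalized counts, standard errors of members ran from 0.25 to 0.77, which limits what can be seen of ABCA4, ABCB6, ABCB11, ABCC6, ABCD2, ABCG2 and ABCG4.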
